A study of Mus musculus with 16 samples.

Results

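The genes described here are 7 zinc finger genes of mouse chromosome 17, Zfp160, Zfp677, Zfp54, Zfp51, Zfp53, Zfp52 and Zfp820, which lie beside a cluster of vomeronasal receptor genes. They were chosen by name from the count and RPKM tables, with their levels in each line and their difference between the linetypes already known, so those values are given below as a description. All 7 of the 24407 genes with counts were found, and all 7 were among the 16507 genes that passed the filter on low counts. RNA was sequenced from the vomeronasal organ (VNO), the chemosensory organ of the nasal septum that detects pheromones and other social odours. The mice came from 4 High Runner (HR) lines, numbered 3, 6, 7 and 8, bred for high voluntary wheel running, and from 4 Control lines, numbered 1, 2, 4 and 5, bred without selection. Every line descended from the outbred Hsd:ICR strain and was sampled at generation 88 and at 12 weeks of age. Each of the 8 lines gave 1 male and 1 female library, and each library was a pool of VNOs from 3 mice, so the 16 libraries hold 4 of each linetype and sex and the spread among single mice was not measured.

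Genes of this kind encode DNA-binding proteins made of a row of C2H2 zinc fingers behind a KRAB domain. The KRAB domain recruits the corepressor Trim28, which brings in the histone methyltransferase Setdb1 and heterochromatin proteins, and the best known targets of the family are transposable elements. KRAB zinc finger genes multiply by tandem duplication, which leaves clusters of similar neighbours such as this one.

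In the GENCODE M21 annotation of GRCm38, 6 of the genes lay on the plus strand of chromosome 17 in the order Zfp160 (21008903 to 21043070), Zfp677 (21383748 to 21399265), Zfp54 (21423227 to 21435640), Zfp51 (21450374 to 21465587), Zfp53 (21488998 to 21510473) and Zfp52 (21535539 to 21562601). Zfp820 (21816885 to 21845772) lay on the minus strand. Zfp677, Zfp54, Zfp51, Zfp53 and Zfp52 formed a central row, whereas Zfp160 was separated from them by the receptor genes Vmn1r234, Vmn1r235, Vmn1r236 and Vmn1r237. The longest annotated coding sequence held a KRAB pattern in 7 of 7 genes. The number of C2H2 fingers was 19 in Zfp51, 18 in Zfp160, 16 in Zfp677, 15 in Zfp53, 14 in Zfp52, and 12 each in Zfp54 and Zfp820. Over aligned residues the encoded proteins were 46.96% to 75.47% identical. Zfp51 and Zfp53 were the most alike, at 75.47%, while Zfp677 and Zfp52 shared 60.1%.

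Genes this similar can exchange reads, so the transcripts were searched for stretches that a read could not assign. The longest coding stretch that any pair of the 7 genes had in common was 60 bases, shorter than the reads of 75 bases. It is shown because it marks the point where the genes come closest to sharing a read. It lies in an exon of Zfp53 (chr17:21509528-21509587, plus strand, GRCm38) and in an exon of Zfp52 (chr17:21561341-21561400, plus strand), and the capitals mark the bases that code for the conserved linker between neighbouring fingers.
Zfp53 and Zfp52: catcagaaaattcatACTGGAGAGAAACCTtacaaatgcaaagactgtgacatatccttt
No stretch of 75 bases was found in the transcripts of more than 1 of the 7 genes. For Zfp677, Zfp53 and Zfp52, 100% of such stretches occurred in no other annotated gene, and the lowest share was 96.12% in Zfp54. The stretches that Zfp54 shared came from Gm49691, an antisense gene that covers 210 of its 2832 exon bases, and reads of these overlapping genes cannot be told apart because the sources used here do not give the strand setting of the counting. The lincRNA gene 9330136K24Rik overlaps 11 of the 3164 exon bases of Zfp52 in the same way.

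The start sites of several of the genes also carried a common stretch. RefSeq windows from 250 bases before to 50 bases after the start site (GRCm38.p6) were on hand for 6 of the 7 genes, all but Zfp51. The windows below are shown because they align without gaps to 56 bases before the start of Zfp53, a stretch chosen after the windows had been compared. Capitals mark CCGGAA, the core letters of the sites bound by ETS transcription factors, and every window is on the plus strand.
Zfp53 (chr17:21488883-21488938): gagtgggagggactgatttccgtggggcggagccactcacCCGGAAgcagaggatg
Zfp52 (chr17:21535506-21535561): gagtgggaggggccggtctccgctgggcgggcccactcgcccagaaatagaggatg
Zfp54 (chr17:21423152-21423207): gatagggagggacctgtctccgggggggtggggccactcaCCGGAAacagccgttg
Zfp677 (chr17:21383644-21383699): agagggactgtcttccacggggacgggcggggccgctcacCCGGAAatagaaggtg
The stretch of Zfp52 matched that of Zfp53 at 44 of 56 bases, that of Zfp54 at 35 and that of Zfp677 at 31. Among the best matches in all 32851 promoter windows the median was 24, and 0.2131% of windows reached 31 or more. Zfp160, at 24, and Zfp820, at 25, lay at or next to that median. The likeness was not particular to these genes, since the windows of Gm10509, which lies between Zfp52 and Zfp820, and of Zfp983 matched at 45 bases. CCGGAA occurred on either strand in the windows of Zfp160, Zfp677, Zfp54 and Zfp53, 4 of 6 genes, beside 37.57% of 338 zinc finger genes named Zfp and 16.66% of all genes with a window. GGGCGG, the letters of the GC box, occurred in 4 of 6 genes (Zfp160, Zfp677, Zfp53 and Zfp52), beside 46.45% of the Zfp genes and 38.2% of all genes. Both strands were searched, and a match of one motif may share end bases with a match of the other. The matches are descriptions of letters.

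The depth of a library was between 15998552 and 70875276 counts on genes, with a median of 37366329. The female libraries of Control line 5 and HR line 3 stood apart for these genes. Control line 5 female was the shallowest of the 16 libraries, and HR line 3 female, with 26301664 counts, was the next but one, after Control line 2 female with 18475375. The part of depth in what follows was not tested. Of the markers of VNO sensory neurons, Omp, which mature neurons express, had 19867 to 161242 counts per library, whereas the channel gene Trpc2 was listed at 0 in every library. In these bulk samples, fewer cells of a type and less RNA per cell cannot be told apart.

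To compare the genes with one another, their levels were read per gene length as RPKM (reads divided by gene length and by library size), within the table of each sex, since the sexes were scaled apart. In males, Zfp160 had the highest mean at 7.04 ± 0.569 RPKM (SD, n = 8 libraries), and Zfp54 followed at 6.96 ± 1.75. Zfp677 stood at 6.10 ± 1.52, Zfp52 at 5.80 ± 1.65 and Zfp51 at 5.005 ± 0.182. The first 5 genes overlapped with their neighbours in this order, and Zfp160 was above Zfp54 in only 4 of 8 male libraries. Zfp53 (3.3 ± 0.420) and Zfp820 (0.640 ± 0.171) were lower, with no overlap between Zfp51 and Zfp53 or between Zfp53 and Zfp820. The female table gave the same order, from 7.56 ± 1.35 for Zfp160 down to 0.725 ± 0.254 for Zfp820. There the ranges of Zfp51 and Zfp53 touched, although Zfp51 was the higher in 8 of 8 libraries.

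**Figure D1:**
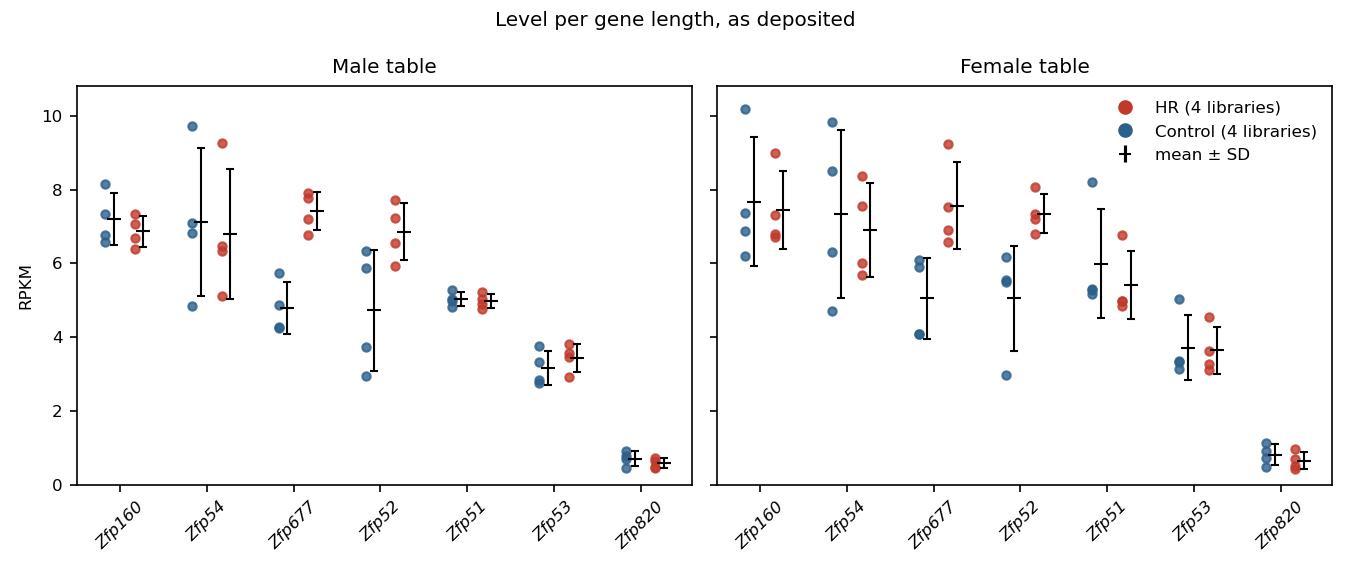
RPKM of the 7 genes in the male (left) and the female (right) table, 1 point per library, 4 HR (red) and 4 Control (blue) libraries per gene, with black marks for the mean and SD. Zfp820 lies lowest, at most 1.13 RPKM in every library, and Zfp677 is the gene whose red points lie above its blue ones in both tables.

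The order of the means differed between the linetypes, which in part restates the difference with which the genes were chosen. In Control males, Zfp160 and Zfp54 led at 7.21 ± 0.709 and 7.12 ± 2.00 RPKM (SD, n = 4), and Zfp677 came after Zfp51 at 4.79 ± 0.695. In HR males, Zfp677 was first at 7.42 ± 0.522 RPKM, followed by Zfp160 at 6.87 ± 0.420 and Zfp52 at 6.86 ± 0.779. In females Zfp677 was likewise first in the HR lines, at 7.56 ± 1.18 RPKM, while Zfp160 led in the Control lines at 7.67 ± 1.75.

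For the comparison of HR and Control lines, levels are given as CPM, counts scaled to a common library total. Standard errors of these differences come from a model of sex and linetype that counts the 2 libraries of a line as separate samples. With the libraries of each line summed, they were 0.12 for Zfp677, 0.18 for Zfp52, 0.22 for Zfp54 and 0.28 for Zfp820. For Zfp160, Zfp51 and Zfp53 they were then 0.09, 0.10 and 0.12. Line means of Zfp677 and Zfp52 were higher in the HR lines without overlap, and those of the other 5 genes overlapped between the linetypes. None of the 7 genes passed an adjusted p of 0.05 in edgeR's quasi-likelihood test across all genes, beside 0.0242% of the 16507 genes tested. In 2 of 7 genes every HR line mean lay above every Control line mean, beside 0.473% of all genes. As the genes were chosen with these values known, nothing is read from either count.

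Zfp677 separated the linetypes most clearly. In the female libraries of HR lines 3, 6, 7 and 8 it measured 23.6, 17.5, 18.4 and 20.1 CPM, and in the male libraries 18.5, 19.5, 21.5 and 21.8 CPM. In the female libraries of Control lines 1, 2, 4 and 5 it measured 10.6, 15.7, 10.8 and 15.9 CPM, and in the male libraries 13.1, 16.01, 11.5 and 11.5 CPM. The lowest HR library was thus above the highest Control library, in both sexes and on the RPKM scale as well. Averaged over the sexes, the HR lines had 20.1 ± 1.19 CPM and the Control lines 13.1 ± 2.10 (SD over 4 lines of each linetype), and the difference was 0.62 on the log2 scale with a standard error of 0.11. This was the largest of the 7 differences.

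Zfp52, the last gene of the central row, followed the same direction with more spread. The HR females of lines 3, 6, 7 and 8 had 22.6, 20.1, 18.7 and 20.1 CPM, and the HR males 17.2, 22.1, 20.8 and 18.9 CPM. The Control females of lines 1, 2, 4 and 5 had 8.54, 17.1, 15.1 and 16.2 CPM, and the Control males 11.3, 18.6, 16.8 and 8.71 CPM. The groups did not overlap in females, but in males Control line 2 lay above HR line 3. Line means were 20.04 ± 0.731 CPM in HR and 14.03 ± 3.55 in Control, and the difference was 0.52 on the log2 scale (standard error 0.16). Line means of Zfp52 were nearly level among the HR lines, but line 3 averaged 22.6 CPM in females and 17.2 in males. Without that female library the SD of the HR line means was 1.61 CPM in place of 0.731. Both libraries of Control line 1 and the male library of Control line 5 read 8.54 to 11.3 CPM. The lowest HR library read 17.2 CPM. With the female libraries of Control line 5 and HR line 3 left out, the lowest HR line (17.2 CPM) no longer exceeded the highest Control line (17.8 CPM), and the fold change stayed at 0.52. Zfp677 kept its separation without these libraries, at 18.5 CPM for the lowest HR line and 15.8 for the highest Control line. Zfp51 then had HR lines at 11.5 to 11.7 CPM, just below the Control lines at 11.7 to 12.2 CPM. Over all genes, every HR line then lay above every Control line in 0.46% and below in 0.442%.

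**Figure D2:**
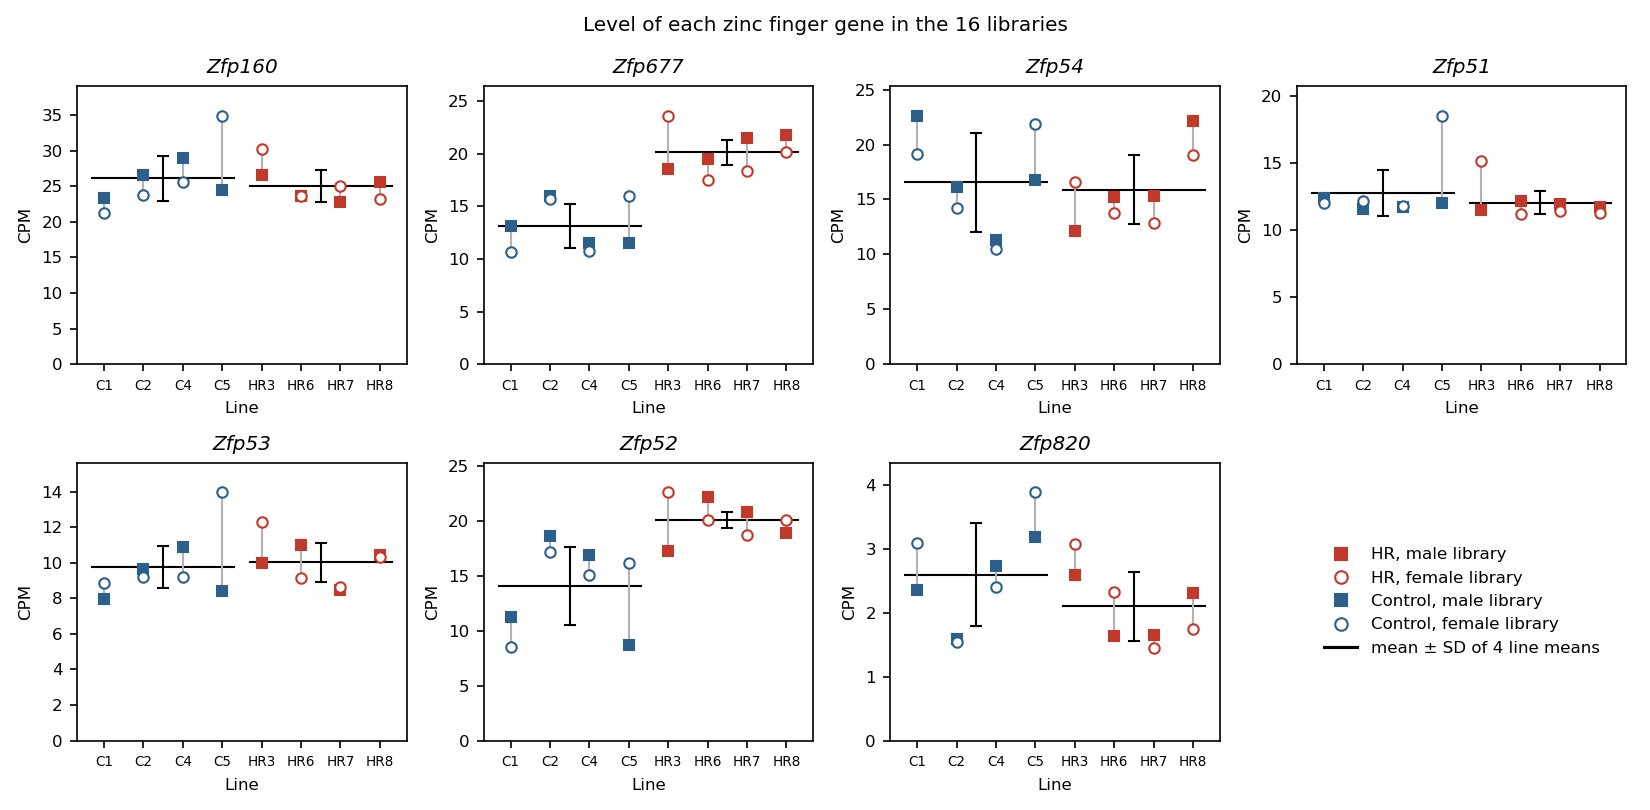
CPM of each gene in the 16 libraries by line (C, Control, blue; HR, red), with filled squares for male and open circles for female libraries, grey lines joining the libraries of a line, and black lines for the mean and SD of 4 line means. Zfp677 lies between 17.5 and 23.6 CPM in HR and between 10.6 and 16.01 CPM in Control libraries, and the female library of line C5 is the highest point for Zfp160, Zfp51, Zfp53 and Zfp820.

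Over all libraries, the line means of the other 5 genes overlapped between linetypes. Zfp160 had line means of 25.1 ± 2.24 CPM in HR and 26.1 ± 3.14 in Control (log2 fold change -0.06, standard error 0.09). Zfp54 had 15.9 ± 3.15 and 16.6 ± 4.49 CPM (-0.06, standard error 0.17). In both genes the difference was smaller than its standard error. Zfp51 had 12.02 ± 0.853 CPM in HR and 12.7 ± 1.68 in Control (-0.08, standard error 0.10), and Zfp53 had 10.03 ± 1.09 and 9.76 ± 1.17 CPM (0.04, standard error 0.12). Zfp820, the outlying gene on the minus strand, had 2.10 ± 0.538 and 2.601 ± 0.811 CPM (-0.30, standard error 0.21), resting on only 30 to 223 counts per library. Its difference was -0.13 without Control line 5, -0.19 without HR line 7 and -0.48 without either Control line 2 or HR line 3. The median log2 fold change of the 7 genes was -0.06, against 0.00 over all genes tested, and their median absolute value was 0.08, against 0.07.

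Levels of some of the genes followed the line whatever its linetype. Zfp54 was high in Control lines 1 and 5 and HR line 8, at line means of 20.9, 19.3 and 20.6 CPM, and low in Control line 4, at 10.9 CPM. The female and male libraries of Control line 4 read 10.5 and 11.3 CPM, and those of HR line 8 read 19.0 and 22.2 CPM. Control line 1 gave 19.2 CPM in females and 22.6 in males. In HR line 3 the sexes differed more, at 16.6 CPM in the female and 12.1 CPM in the male library. Control line 5 was split likewise, at 21.9 CPM in the female and 16.7 CPM in the male library. Its male library lay close to that of Control line 2, at 16.1 CPM. The highest line mean of Zfp54 was 1.92 times the lowest. The corresponding ratio was 2.28 for Zfp820, 2.13 for Zfp52 and 1.89 for Zfp677, and 1.33 for each of Zfp160, Zfp51 and Zfp53. Across the 8 lines the male and female levels correlated with Pearson's r = 0.78 for Zfp820, 0.76 for Zfp677, 0.67 for Zfp54 and 0.58 for Zfp52, and with 0.17 for Zfp160, -0.07 for Zfp51 and -0.10 for Zfp53. Those coefficients describe 8 points each and carry no test. Linetype means were not removed, so the ratios and coefficients of Zfp677 and Zfp52 include the difference between the linetypes they were chosen for. In edgeR's test for differences among lines of a linetype, 2 of 7 genes passed (Zfp54 and Zfp820), beside 28.6% of all genes, a share at the background. With the female libraries of Control line 5 and HR line 3 left out, 3 genes passed (Zfp677, Zfp54 and Zfp52), beside 27.6% of all genes.

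Zfp51 was the steadiest gene outside those 2 female libraries. Its 8 male libraries lay between 11.5 and 12.3 CPM, and the 6 other female libraries between 11.1 and 12.1 CPM. The female library of HR line 3 reached 15.1 CPM and that of Control line 5 reached 18.5 CPM. Zfp53 and Zfp160 showed the same libraries on top. For Zfp53 they read 13.96 CPM (Control line 5) and 12.3 CPM (HR line 3), beside 7.95 to 11.01 CPM in the other 14 libraries. For Zfp160 they read 34.9 and 30.3 CPM, beside 21.3 to 28.9 CPM.

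Sex was not part of how the genes were chosen, so it could be tested. No gene of the 7 passed an adjusted p of 0.05 in edgeR's test of female against male libraries, beside 0.188% of all genes, and none had an unadjusted p below 0.05 or passed in DESeq2. With line as a replicate block, 90 genes passed in place of 31, and none was among the 7. The largest estimate was for Zfp51, at 0.12 on the log2 scale in females (95% interval -0.09 to 0.33, edgeR adjusted p = 0.832), higher in females in 4 of 8 lines. For Zfp677 the estimate was -0.01 (-0.24 to 0.22, edgeR adjusted p = 0.997), with the female library higher in 2 of 8 lines. Zfp52 gave 0.04 (-0.30 to 0.38, edgeR adjusted p = 0.984). The intervals of Zfp160, Zfp51, Zfp53 and Zfp677 leave out changes of more than 0.34 on the log2 scale in either direction. That of Zfp820 reached from -0.35 to 0.57. These intervals come from the model of sex and linetype, which does not pair the libraries of a line. With line as a replicate block the standard error was smaller for each of the 7 genes. For Zfp820 it was 0.12 in place of 0.21, and for Zfp54 0.09 in place of 0.17.

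The mean over lines hid a split between them. In Control line 5 and in HR line 3 the female library was above the male library for 7 of 7 genes. In each of the other 6 lines this held for only 1 or 2 of the 7. Over all 16507 genes the female library was the higher for 49.53% in Control line 5 and 46.88% in HR line 3, beside 47.78% to 52.66% in the other lines. In Control line 5 the differences ran from 0.28 for Zfp820 to 0.89 for Zfp52 on the log2 scale, and in HR line 3 from 0.19 for Zfp160 to 0.46 for Zfp54. This pattern was noticed in the data and was not tested. With both libraries left out, the estimate of female minus male was negative for 7 of 7 genes, between -0.14 for Zfp54 and -0.02 for Zfp52, and again no gene passed (edgeR adjusted p of 0.747 or more).

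**Figure D3:**
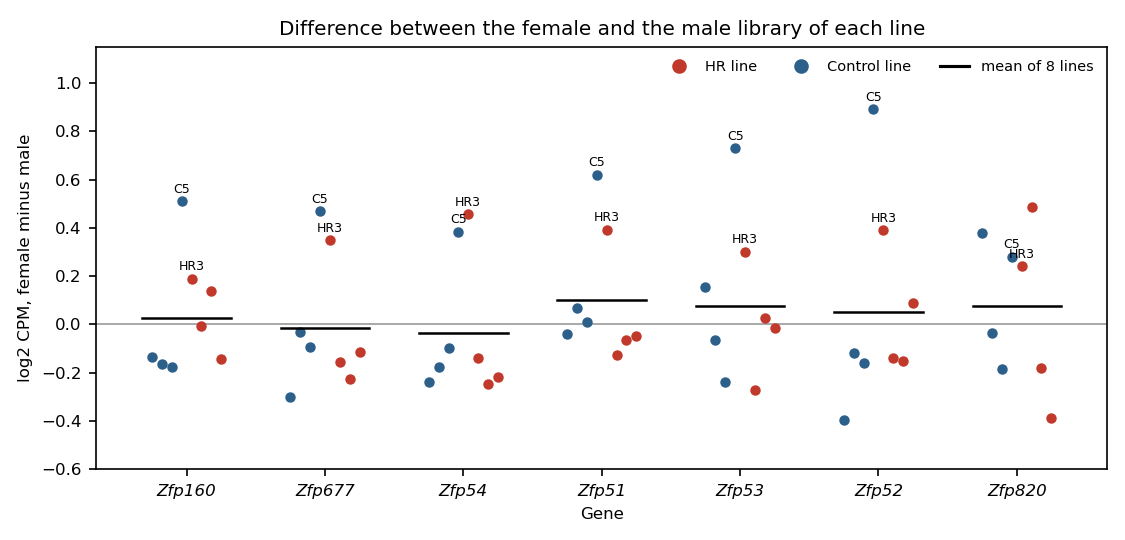
Female minus male log2 CPM of each gene in the 8 lines (HR red, Control blue), with the mean of the lines as a black bar and lines C5 and HR3 labelled. Both labelled lines lie above 0 for each of the 7 genes, from 0.19 to 0.89, while most of the other points lie below 0.

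An interaction of sex and linetype was not detected. None of the 7 genes passed, beside 0% of the 16507 genes (65 of which had an unadjusted p below 0.05 in edgeR and 62 in DESeq2, where again 0 passed after adjustment). The interaction term, the difference of the linetypes in females minus that in males, was -0.05 on the log2 scale for Zfp677 (95% interval -0.53 to 0.44, edgeR adjusted p = 1) and 0.01 for Zfp52 (-0.70 to 0.72, edgeR adjusted p = 1). Intervals of this width leave room for a sizeable sex difference in either gene. They too come from a model that does not pair the libraries of a line. With line as a replicate block the standard error was 0.19 in place of 0.22 for Zfp677, and 0.26 in place of 0.33 for Zfp52.

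Some of the genes moved together across libraries. After the mean of each sex was removed, log2 CPM of Zfp677 and Zfp52 correlated with r = 0.80 over the 16 libraries. Zfp160, Zfp51 and Zfp53 correlated with one another at 0.76 (Zfp160 and Zfp51), 0.80 (Zfp160 and Zfp53) and 0.70 (Zfp51 and Zfp53). The lowest coefficient was that of Zfp52 and Zfp820, at -0.49. The coefficients among Zfp160, Zfp51 and Zfp53 rested on the female libraries of Control line 5 and HR line 3. Over the 14 libraries left without them, Zfp160 and Zfp51 had r = -0.52, Zfp51 and Zfp53 had -0.36, and Zfp160 and Zfp53 had 0.44. Zfp677 and Zfp52 stayed at 0.79, a value that includes the difference between the linetypes they were chosen for. Points of this kind share library and depth, and no p is given.

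**Figure D4:**
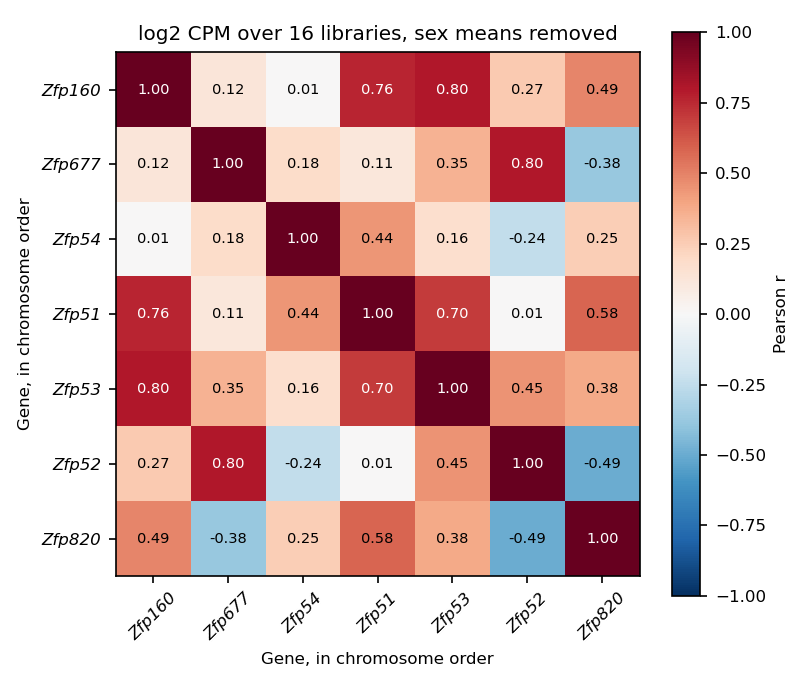
Pearson correlation of log2 CPM between the 7 genes over 16 libraries with the mean of each sex removed, in chromosome order, with red for positive and blue for negative values. The darkest squares off the diagonal are Zfp677 with Zfp52 and Zfp160 with Zfp53, both at 0.80.

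For each gene the 3 genes with the most similar profile over the 16 libraries were sought among all genes tested. Zfp677 was most like Lgals9, the gene of a galectin, with r = 0.88, followed by Fpr-rs4 (0.86), a formyl peptide receptor gene of vomeronasal neurons, and Vmn2r110 (0.86), a vomeronasal receptor gene. Zfp52 was most like Zfp40 (0.93), Vmn2r114 (0.86) and Triqk (0.85). Fpr-rs4, Vmn2r110, Zfp40 and Vmn2r114 all lie on chromosome 17. The profiles of Zfp677 and Zfp52 carry the difference between the linetypes with which they were chosen, so these likenesses are no independent result. Without the female libraries of Control line 5 and HR line 3 these coefficients were 0.94 for Fpr-rs4, 0.94 for Vmn2r110, 0.93 for Zfp40 and 0.98 for Vmn2r114.
Zfp51 was most like the noncoding RNA gene Tug1 (0.97), the mannosyltransferase subunit gene Dpm1 (0.96) and the translation termination gene Gspt1 (0.96), but without those libraries the latter 2 fell to 0.43 and 0.36. Zfp54 was most like Vmn1r207-ps (0.91), a receptor pseudogene of chromosome 13. Zfp160 was most like the small GTPase gene Rap1b (0.95), Zfp53 like the deiodinase gene Dio2 (0.91) and Zfp820 like Acnat1 (0.95). Without those libraries the coefficients were 0.83 for Rap1b, 0.75 for Dio2 and 0.80 for Tug1. They were then 0.97 for Vmn1r207-ps and 0.96 for Acnat1.

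Between Zfp160 and Zfp820 lay 9 other genes that passed the filter. None passed the test of HR against Control in edgeR, beside 0.0242% of all genes. The largest difference was that of the receptor gene Vmn1r236, with line means of 9.04 ± 2.73 CPM in HR and 24.6 ± 9.94 in Control (log2 fold change -1.45, standard error 0.26), so that the HR lines lay below the Control lines. The 3 other receptor genes of the interval had log2 fold changes of 0.07 (Vmn1r234), -0.30 (Vmn1r235) and 0.14 (Vmn1r237), each with a standard error of at least 0.27. Zfp948, which follows Zfp52, had 0.02 (standard error 0.12), Zfp760 -0.09 and Zfp229 -0.15. Within 13 other Zfp genes between 20 and 24 Mb of the chromosome, log2 fold changes ran from -0.23 to 0.32 and none passed. The highest was Zfp40, with 27.7 ± 1.71 CPM in HR and 22.2 ± 3.92 in Control, the only one of the 13 whose line means did not overlap. Zfp54, Zfp51 and Zfp53, which lie between Zfp677 and Zfp52, had log2 fold changes between -0.08 and 0.04.

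**Figure D5:**
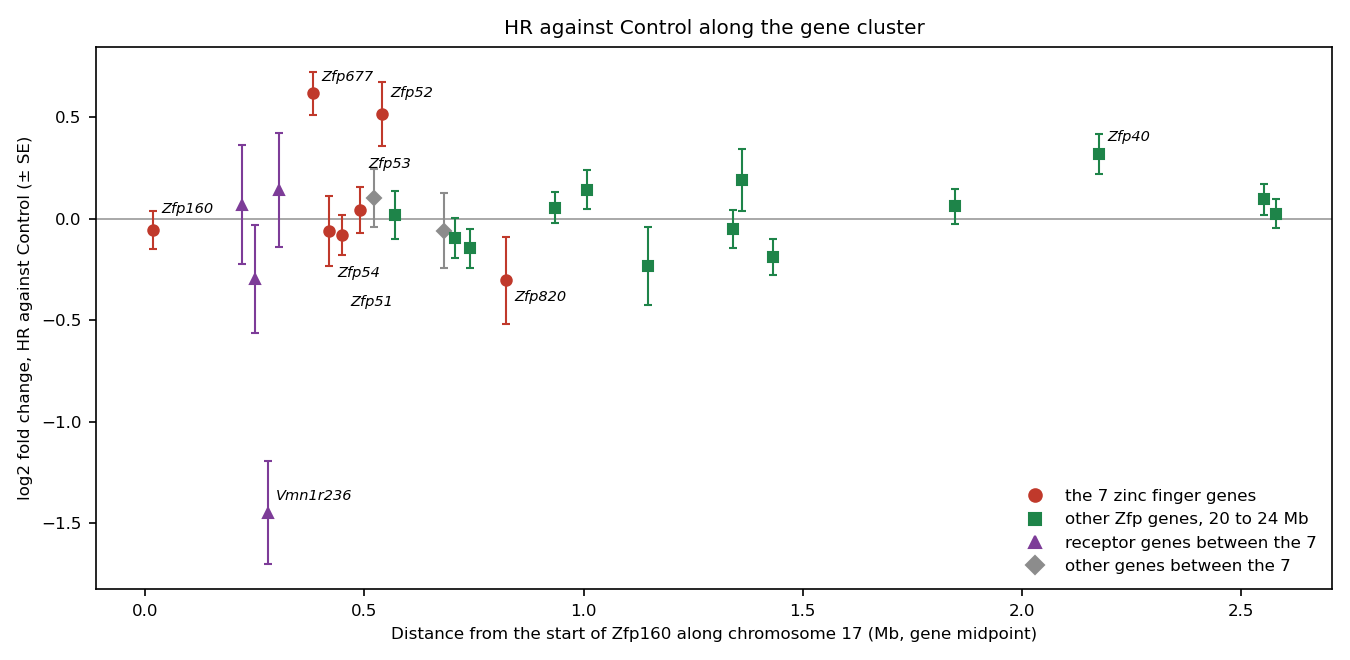
Log2 fold change of HR against Control with its standard error for the 7 genes (red), for receptor genes (purple) and other genes (grey) between them, and for other Zfp genes at 20 to 24 Mb (green), by distance from the start of Zfp160. Zfp677 (0.62) and Zfp52 (0.52) lie highest and Vmn1r236 (-1.45) lowest, with Zfp54, Zfp51 and Zfp53 near 0 between the former.

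Set against the family as a whole, 343 of 364 other Zfp genes passed the filter. None of them passed the test of HR against Control in edgeR, beside 0.0242% of all genes. At an unadjusted p below 0.05, 5 were higher and 7 lower in HR, and the median absolute log2 fold change was 0.05. In 4 of the 343 every HR line mean was above every Control line mean, beside 0.473% of all genes. Differences among lines of a linetype were called for 63 of the 343, or 18.37%, beside 28.6% of all genes.

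No difference between the linetypes was called for the corepressor genes on whose products KRAB proteins act. Of 21 listed genes, 21 were tested and 0 passed in either direction in edgeR, and none had an unadjusted p below 0.05. Over all 16507 genes tested, 0.0242% passed and 545 had an unadjusted p below 0.05, so these counts say little about the list. Trim28, the scaffold that binds KRAB, had 154.3 ± 8.13 CPM in HR and 147.3 ± 8.58 in Control line means (log2 fold change 0.07, standard error 0.07). Setdb1, which methylates histone H3, had 60.8 ± 1.07 and 59.7 ± 5.08 CPM. The widest differences were -0.33 for Uhrf1, a partner of the maintenance DNA methyltransferase, with a standard error of 0.21, and 0.09 for the heterochromatin gene Cbx3, with a standard error of 0.06. The summed level of the list was 1881 to 1979 CPM in HR and 1823 to 2050 CPM in Control libraries.

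Markers of the cell types that a VNO sample can hold varied widely among libraries. The neuron list (4 of its 5 genes tested, Trpc2 being listed at 0) summed to 2983 to 4590 CPM in HR and 2504 to 4705 CPM in Control libraries. The gland list ranged from 1167 to 6838 CPM in HR and from 1136 to 6635 CPM in Control, and the stroma list from 493.3 to 3620 and from 732.3 to 2495 CPM. Immature neuron genes summed to 114.9 to 196.9 CPM in HR and 115.9 to 186.4 CPM in Control, vessel genes to 66.2 to 446.7 and 113.6 to 657.8 CPM, immune genes to 593.6 to 1123 and 668.6 to 956.5 CPM, and basal cell genes to 24.6 to 60.6 and 18.5 to 274.5 CPM. Blood was represented by Hba-a1 and Hbb-bs, both at 0 in every library. Over both sexes the linetypes overlapped in each of these lists, but in females the basal list did not overlap, with 24.6 to 40.3 CPM in HR and 49.96 to 274.5 CPM in Control libraries. Of the basal genes, 3 of 3 had a negative log2 fold change of HR against Control (median -0.97), as had 5 of 5 immature neuron genes (median -0.33) and 4 of 4 vessel genes (median -0.39). No marker passed an adjusted p of 0.05 in edgeR. Those with an unadjusted p below 0.05 were 2 basal genes (Krt5 and Trp63), 1 immature neuron gene (Neurod1) and 1 gland gene (Bpifb9b). Krt5, Trp63 and Neurod1 were lower in the HR lines. Bpifb9b went the other way, being 1.98 higher in HR in log2 units. The line means of Krt5, Trp63 and Bpifb9b overlapped between the linetypes, and only those of Neurod1 did not. The part of cell composition in the levels of the zinc finger genes was not tested.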

How the data were processed

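Ribosome-depleted total RNA was made into directional libraries and sequenced as single-end reads of 75 bases. The authors used STAR 2.6.1d and the GRCm38 build for alignment, accepting no mismatch and dropping reads with more than 1 location. A read that differs from the reference was therefore not counted, and expression and sequence differences between lines cannot be told apart. The deposited count tables hold raw reads per gene, and the deposited RPKM tables hold values the authors scaled by gene length and library size. The counting tool, annotation and strand setting are not given in the sources used here. Each table holds 1 sex, and sex and sequencing lane may coincide.

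Counts were normalised by TMM and tested in R 4.3.3 with edgeR 4.0.16 (filterByExpr, minimum count 10; quasi-likelihood F-test; Benjamini-Hochberg adjustment over 16507 genes; threshold 0.05). Models held sex and linetype, their interaction, or lines within linetype. DESeq2 1.42.0 and limma 3.58.1 gave alternatives, including log2(RPKM + 1) over 16858 genes. For limma on RPKM, genes with a mean above 0.1 were kept. The fits were tested on simulated data with independent libraries and the same noise for all genes. For HR against Control, sex and interaction, these data held no differences among lines of a linetype. They therefore cannot show how those fits perform where such differences exist. A chi-square per degree of freedom was obtained for only a minority of the pairs of libraries within a group, and for no pair of HR females. Where obtained it was 31.9 to 521.6, so neither library of those pairs was a copy of the other. The remaining pairs were not checked in this way. Replicate numbers are line numbers and pair both sexes of a line, whose deviations from the group means correlated at 0.32 to 0.71. The exclusion of 2 female libraries was chosen after seeing the data.

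The members and lists were chosen with earlier results of these data known. Named were the 7 members, the 3 genes most correlated with each, genes between members, Zfp genes at 20 to 24 Mb of chromosome 17, 21 corepressor genes and Vmn1r236. Tables and sequences were handled in Python 3.11.15 with pandas 2.3.3, numpy 2.4.6 and Biopython 1.88, and figures drawn with matplotlib 3.10.9. Promoter windows came from RefSeq.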

Additional observations from a re-analysis of the deposited data

Results flagged for a closer look

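In a check of 28 groups of 4 libraries (7 genes, each linetype and sex), 3 groups held a library far from the others. Chance gives about 1 such group in 20. Zfp51 measured 18.5 CPM in the female library of Control line 5, from 290 counts, while the other Control females had 11.8 to 12.1 CPM. Zfp51 also measured 15.1 CPM in the female library of HR line 3, from 411 counts, while the other HR females had 11.1 to 11.4 CPM. Zfp53 measured 13.96 CPM in the female library of Control line 5, from 219 counts, against 8.84 to 9.22 CPM in the other Control females.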

How the results depend on the processing

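For HR against Control, edgeR called 4 genes, DESeq2 30, and line sums, limma-voom (line random), males alone and females alone 0 each. When single lines were dropped the count was 1 to 17 (17 without Control line 2). Members called went from 0 to 1 (Zfp677) in DESeq2 and without Control line 2, and were 0 to 1 over the lines left out. For female against male, 31 genes were called, 19 without the filter on low counts, 182 in DESeq2, 90 with line as a replicate block, and 13 to 25 with a line left out. No member was called in any of these, and the block changed no other call. For the interaction, the count was 0 throughout. Among lines, 4714 genes were called, 3076 to 4952 with a line left out, and members called were 1 to 2 (1 without Control line 2 or 4 or HR line 3, 7 or 8). The fold changes of HR against Control moved by less than the spread between lines under all 18 alternatives, from 0.53 to 0.72 for Zfp677 and from 0.37 to 0.65 for Zfp52. Small uncalled values changed sign with a line left out, also for HR against Control (Zfp160 -0.13 to 0.0123, Zfp54 -0.22 to 0.0665, Zfp51 -0.13 to 0.0123, Zfp53 -0.0302 to 0.11). Without the female libraries of Control line 5 and HR line 3, female minus male was -0.0884 for Zfp160, -0.0301 for Zfp51, -0.0561 for Zfp53, -0.024 for Zfp52 and -0.11 for Zfp820, and the interaction of Zfp54 was 0.10. With a line left out, female minus male ranged from -0.0402 to 0.0712 for Zfp160, -0.0769 to 0.0321 for Zfp677, -0.11 to 0.00266 for Zfp54, -0.0172 to 0.14 for Zfp53 and -0.0616 to 0.08003 for Zfp52. The interaction then ranged from -0.049 to 0.21 for Zfp160, -0.18 to 0.11 for Zfp677, -0.18 to 0.13 for Zfp54, -0.27 to 0.0355 for Zfp51, -0.28 to 0.0787 for Zfp53, -0.10 to 0.24 for Zfp52 and -0.22 to 0.0604 for Zfp820. The cause of these changes was not tested. Zfp820, with 30 to 223 counts per library, had the fewest counts.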
